A study of Mus musculus with 20 samples.

Results

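The 33 genes described here carry glucose into the cell, break it down to pyruvate and lactate, export the lactate, or respond to low oxygen and to glucose itself. They were taken as a fixed list of gene names from the 34083 genes whose reads could be summed in the mouse annotation GENCODE vM21 (build GRCm38), by name and not by a threshold on their values, though with earlier results of these data known. The list holds 2 glucose transporters (Slc2a1 and Slc2a3), the enzymes of glycolysis from the hexokinases to pyruvate kinase, the lactate dehydrogenases, 2 lactate transporters (Slc16a1 and Slc16a3), the regulators Pfkfb3 and Pdk1, 7 genes known as targets of the hypoxia-inducible factor (HIF) and 3 genes of the glucose-sensing Mondo pathway. In the first batch 29 of the 33 had enough reads to be tested, and in the second batch 28.

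Glycolysis turns glucose into pyruvate in the cytosol and yields ATP without oxygen. Tumour cells often run it at a high rate and release lactate, and many of its genes are induced when HIF is stabilised. HIF is marked for destruction by the oxygen-dependent prolyl hydroxylases, of which Egln1 is the main one, and Egln1 and Egln3 are themselves HIF targets. MondoA, encoded by Mlxip, senses phosphorylated glucose and switches on Txnip and Arrdc4, whose proteins lower glucose uptake. The comparison asked whether laser scanning changed the messages of this pathway soon after exposure.

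PolyA RNA was collected in bulk from Neuro2A (N2A) cells, a mouse neuroblastoma line, grown in 384-well plates, with whole wells scanned and lysed 1 h later. Batch 1 had 5 groups of 3 libraries. The negative control (NC) was not exposed. I0-E0, I0-E2 and I0-E4 were scanned with a near-infrared laser through a 20X objective at the same, lowest intensity for 2, 10 and 20 µs per pixel, so that fluency (energy per area) rose with dwell time. I2-E2 was scanned in the same way for 2 µs per pixel at a higher intensity, which gave it the fluency of I0-E2. Batch 2 had 2 NC libraries and 3 libraries of I3-E3-SRS, a setting for stimulated Raman scattering with 2 lasers through a 60X objective for 2 µs per pixel, at the highest intensity of all the groups and close to settings that burn cells, with a fluency between those of I0-E2 and I0-E4. The labels number the libraries without naming a culture or well for each, so the p-values reflect how these libraries vary, which may be technical only. As one line in one kind of plate, the cells stand for N2A and for no tissue.

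The libraries held 5473588 to 12698770 estimated reads. Of 14 neuroblastoma and sympathetic neuron markers, 11 had a mean of at least 1 TPM (a level corrected for transcript length), and the sum over the list was 2316 to 2530 TPM in 19 libraries and 1376 TPM in NC-batch2 replicate 1. Of 26 markers of fibroblasts, macrophages, epithelium, endothelium and erythroid cells, 3 reached a mean of 1 TPM: Pdgfra, Cd68 and Pecam1. Lyz2, Krt18, Hba-a1 and Hbb-bt were listed at 0 throughout.

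NC-batch2 replicate 1 stood apart in how its reads had been assigned. The quantifier subtracts a fragment length from each transcript to get an effective length, and in that library the result was a whole number for 100% of transcripts over 1000 bases, with a median subtraction of 249 bases. In the other 19 libraries at most 0.960% of these values were whole, and the median subtraction was 192 to 254 bases. Transcripts under 300 bases took 33.02% of all TPM there and 1.62% to 2.299% in the other 19 libraries. The 33 genes together summed to 6909 TPM in that library and to 9503 TPM in NC-batch2 replicate 2. As CPM (reads scaled to a common library size by TMM) the sums were close, at 10043 and 10328. Levels are therefore compared between genes as TPM and between libraries of the same batch as CPM. Without this library 7 of the 28 members tested in batch 2 changed the sign of their log2 fold change, namely Eno1, Pgam1, Pfkm, Aldoa, Tpi1, Slc16a3 and Ndrg1. The log2 fold changes of these 7 then lay at most 0.18 from 0. None of the 28 passed an adjusted p of 0.05 with or without it. The remaining NC library is then assumed to vary like I3-E3-SRS. Changes of sign were not particular to this library. With NC-batch2 replicate 2 left out instead, Pfkl, Eno2, Ldha, Vegfa, Egln1, Ankrd37, Txnip and Mlxip changed sign. Of these Mlxip then lay furthest from 0, at 0.25.

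The genes covered a wide range of levels, from some of the most abundant messages of the cell down to none. In the NC libraries of batch 1, Ldha, which makes lactate from pyruvate, was the highest at 1610 ± 36.5 TPM (SD, n = 3). Aldoa (1262 ± 36.7 TPM), Gapdh (1170 ± 114 TPM) and Pkm (1144 ± 50.9 TPM) followed, and neighbours among these 3 overlapped between libraries. Eno1 (799 ± 73.0 TPM) and Pgam1 (565 ± 25.3 TPM) came next. The places of Gapdh and Eno1 count only reads assigned to these genes, which were 25.7% and 52.2% of the reads of their families of near-identical copies. Gpi1 (387 ± 0.992 TPM), Pgk1 (381 ± 11.3 TPM) and Tpi1 (376 ± 21.9 TPM) could not be ordered, since their ranges overlapped. The hexokinases, the phosphofructokinases, Pfkfb3 and the glucose and lactate transporters were lower, from Pfkp at 226 ± 5.23 TPM to Slc2a1 at 15.4 ± 1.83 TPM. The HIF targets lay at 50.1 ± 1.26 TPM for Egln1 and 49.0 ± 8.22 TPM for Vegfa, which encodes the main angiogenic growth factor, and at or under 14.8 TPM for the rest.

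**Figure D1:**
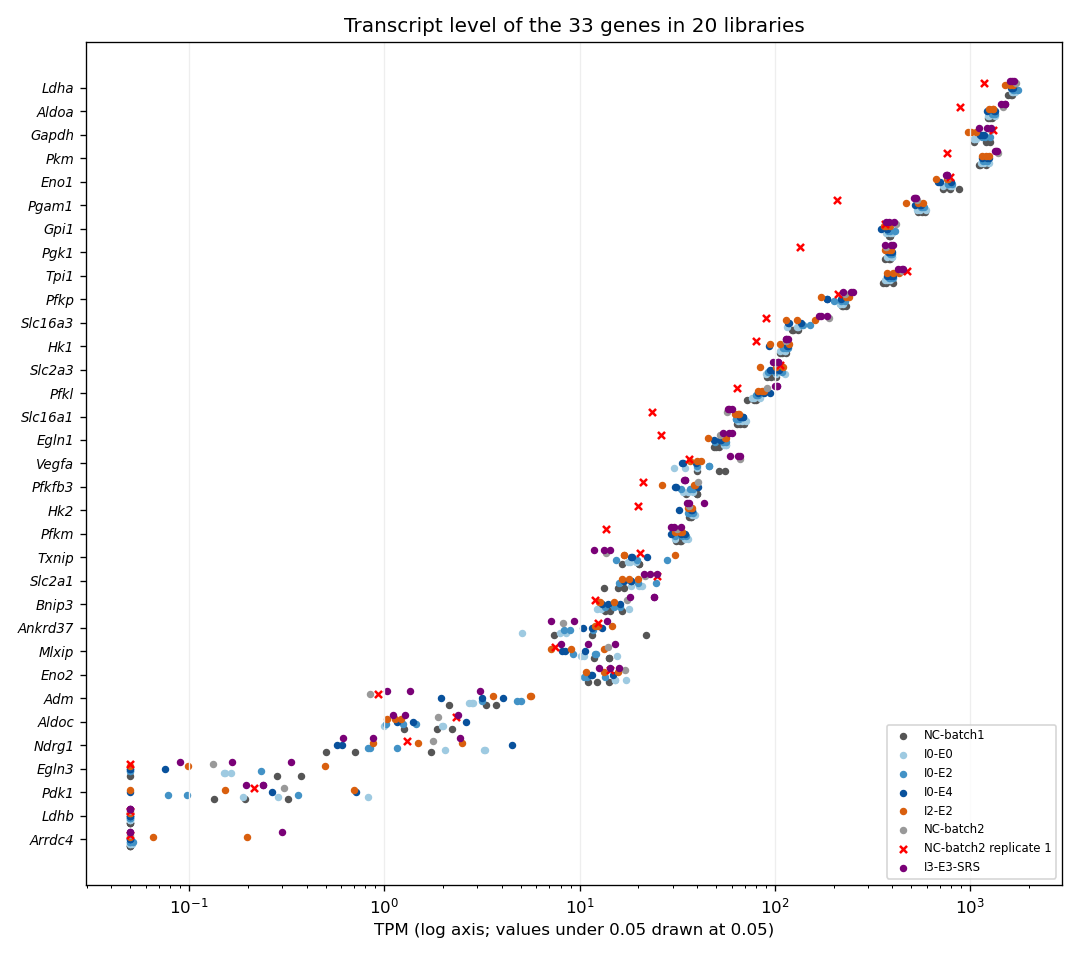
Transcript level (TPM, log axis) of each of the 33 genes, ordered by their mean in NC of batch 1, with 1 point per library coloured by group and a red cross for NC-batch2 replicate 1; values under 0.05 are drawn at 0.05. Levels span from over 1000 TPM for Ldha, Aldoa, Gapdh and Pkm to 0 for Ldhb, and the red crosses lie below the other 19 libraries for Pgk1, Pgam1 and Slc16a1 among others, and above them for Slc2a1, Tpi1 and Gapdh.

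Where the list holds several genes for a step, 1 of them held most of their summed TPM. Slc2a3 (GLUT3, the high-affinity neuronal glucose transporter) made up 86.2% ± 1.19 of the summed TPM of Slc2a1 and Slc2a3 in NC of batch 1 (n = 3). Hk1, the constitutive hexokinase, held 74.8% ± 0.523 of the hexokinase TPM, and Hk2, the inducible form, held 25.2% ± 0.523. Among the phosphofructokinases, which set the pace of the pathway, Pfkp held 67.4% ± 1.57, Pfkl, the liver type, 22.9% ± 1.30 and Pfkm, the muscle type, 9.67% ± 0.301. Aldoa held 99.9% ± 0.0371 of the TPM of Aldoa and Aldoc, and Eno1 98.5% ± 0.202 of the TPM of Eno1 and Eno2, so the brain-type genes Aldoc and Eno2 were minor in this neuronal tumour line. With Eno1b, a near-identical enolase gene outside the list, counted too, Eno1 held 61.8% ± 1.48, Eno1b 37.2% ± 1.55 and Eno2 0.972% ± 0.139. Slc16a3 (MCT4, a lactate exporter) held 65.4% ± 1.20 of the lactate transporter TPM and Slc16a1 (MCT1) 34.6% ± 1.20.

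Ldhb, the lactate dehydrogenase subunit of heart and neurons, was listed at 0 reads in all 20 libraries. Ldha reached 8337 to 20702 reads in the same libraries. A count of 0 allows up to 3 reads, which is 0.236 CPM in the deepest library and 0.548 CPM in the shallowest (counting error only). Of the 31-base words in its transcripts, 67.0% occur in no other gene, so its reads could have been told apart over most of its length. Arrdc4 had 6 reads in total, in 5 of the 20 libraries. Egln3 had 37 reads in 13 libraries, and Pdk1, which blocks pyruvate entry to the mitochondrion, had 101 reads in 19 libraries. These 4 genes were too low to test.

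Laser exposure was compared with the NC of the same batch by edgeR's quasi-likelihood test with Benjamini-Hochberg adjustment over every gene tested. None of the 33 genes passed an adjusted p of 0.05 in any of the 7 tests (5 exposures against NC, I2-E2 against I0-E2, and any difference among the 5 groups of batch 1). The background was the same, with 0 of 12296 genes (0%) called in each batch 1 test and 0 of 12031 (0%) in batch 2. The smallest adjusted p of a member was 0.61, in I0-E4. DESeq2 and limma-voom also called 0 of the 29 members tested in batch 1 and 0 of the 28 in batch 2. Of all genes, DESeq2 called 15 of 12031 in I3-E3-SRS and at most 4 of 12296 in a batch 1 test. With limma-voom it was 0 in every test. In bulk RNA, fewer cells of a kind and less RNA per cell cannot be told apart.

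At an unadjusted p under 0.05, 3 of 29 members passed in I0-E0, where 3.36% of all genes did, and 2 of 29 in I0-E2, where 3.36% did. In I0-E4 4 of 29 passed beside 7.91% of all genes, and in I2-E2 5 of 29 beside 7.19%. In I2-E2 against I0-E2 1 of 29 passed beside 5.25%, and in I3-E3-SRS 1 of 28 beside 4.02%. For any difference among the 5 groups 2 of 29 passed beside 4.23%. The 4 exposures of batch 1 share the same 3 NC libraries, so their values are not independent of each other. The members' median log2 fold change was 0.01 in I0-E0, 0.06 in I0-E2, 0.07 in I0-E4 and 0.04 in I2-E2. It was -0.01 in I2-E2 against I0-E2 and -0.004 in I3-E3-SRS. The median of all genes tested lay between -0.004 and 0.01 in these 6 comparisons. With each library's trend on transcript length removed, the members' median was -0.01 in I0-E0, 0.06 in I0-E2, 0.04 in I0-E4 and 0.002 in I2-E2. It was then -0.02 in I2-E2 against I0-E2 and 0.0007 in I3-E3-SRS.

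In each comparison of batch 1 the 95% interval lay within 0.6 on either side of 0 on the log2 scale for 25 of the 29 members tested. The other 4 were the low genes Ndrg1, Aldoc, Adm and Ankrd37. In I3-E3-SRS it did so for 24 of 28, with Ndrg1, Aldoc, Ankrd37 and Bnip3 outside.

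**Figure D2:**
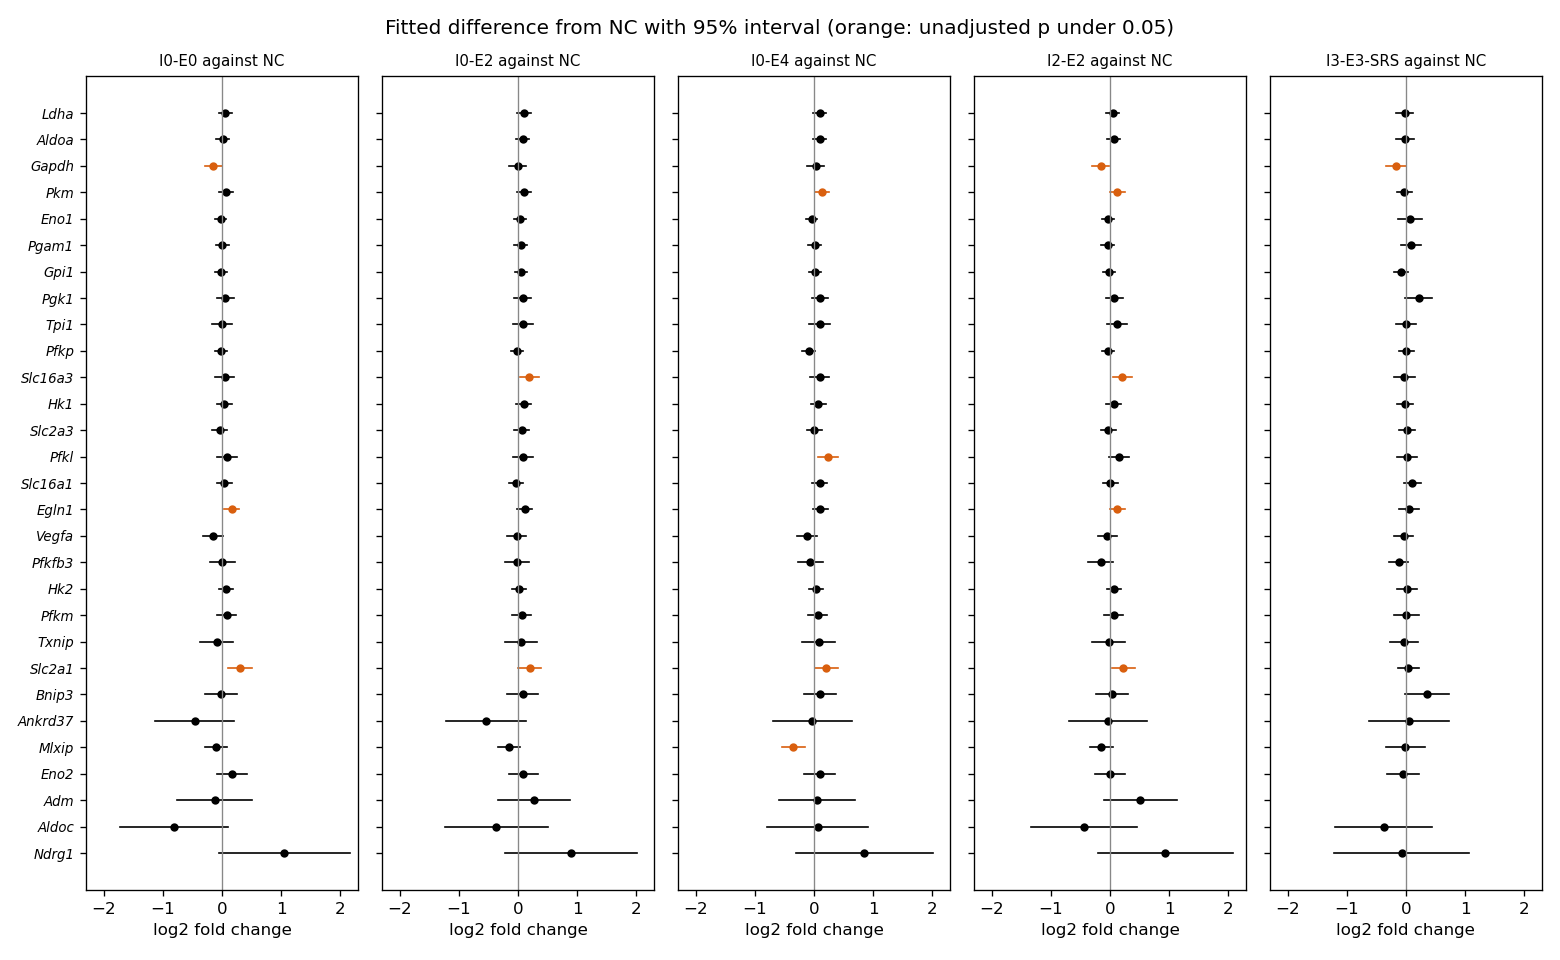
Fitted log2 fold change against NC of the same batch with its 95% interval for each member tested, ordered by TPM, with 1 panel per exposure and unadjusted p under 0.05 in orange. Intervals of the abundant enzymes are narrow and close to 0, Slc2a1 is orange in the 4 exposures of batch 1, and Ndrg1, Aldoc, Adm and Ankrd37 have the widest intervals.

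Slc2a1 (GLUT1), the widespread basal glucose transporter on chr4:119108711-119137983, had the smallest member p in I0-E0. NC of batch 1 held 29.6, 27.9 and 25.4 CPM, and I0-E0 held 35.6, 32.4 and 34.5 CPM. I0-E2 held 32.7, 28.9 and 33.8 CPM, I0-E4 held 33.6, 34.1 and 28.8 CPM, and I2-E2 held 31.2, 31.8 and 33.98 CPM. The libraries of I0-E0 and I2-E2 all lay above NC, while the lowest library of I0-E2 and of I0-E4 fell below the highest NC library. The log2 fold change was 0.30 (95% interval 0.11 to 0.50) in I0-E0 and 0.20 (95% interval 0.01 to 0.40) in I0-E2. It was 0.21 (95% interval 0.01 to 0.41) in I0-E4 and 0.23 (95% interval 0.03 to 0.43) in I2-E2. None of these passed, with edgeR adjusted p from 0.62 to 1.00. Among the exposed groups of batch 1, I0-E0, with the lowest fluency, had the highest mean. Its libraries overlapped those of I0-E2 and I0-E4, and a trend with fluency was not tested. I2-E2 and I0-E2, which received the same fluency, differed by 0.03 (95% interval -0.17 to 0.22). In batch 2 the NC libraries held 39.1 and 39.1 CPM and I3-E3-SRS 41.9, 38.7 and 40.1 CPM, a log2 fold change of 0.04 (95% interval -0.14 to 0.22). The difference between the batches in this effect was not tested.

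Slc2a3 held 186, 188 and 176 CPM in NC of batch 1, 173, 191 and 173 in I0-E0, 197, 190.2 and 188 in I0-E2, 187, 189.7 and 178 in I0-E4 and 191, 167 and 181 in I2-E2, and in batch 2 172 and 167 in NC and 176, 174 and 166 in I3-E3-SRS. Slc2a3, which carries most of the transporter message here, overlapped NC in every exposure but I0-E2, and its log2 fold changes against NC ran from -0.04 to 0.06. Hk1 held 252, 239.2 and 249 CPM in NC of batch 1, 266, 247 and 249 in I0-E0, 251, 269 and 271 in I0-E2, 279.5, 243 and 255 in I0-E4 and 259, 249 and 265 in I2-E2, and in batch 2 278 and 282 in NC and 279.6, 268 and 283 in I3-E3-SRS. Hk1, which traps glucose as its phosphate, overlapped NC in each exposure, with log2 fold changes from -0.02 to 0.10. Gpi1 held 435, 448 and 418 CPM in NC of batch 1, 430.2, 437 and 421 in I0-E0, 444, 463 and 442 in I0-E2, 433, 461 and 425 in I0-E4 and 424, 433 and 431 in I2-E2, and in batch 2 526 and 531 in NC and 495, 501 and 503 in I3-E3-SRS. For Gpi1, the isomerase of the next step, the values ran from -0.08 to 0.05.

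Pfkp held 372, 377 and 368 CPM in NC of batch 1, 365, 366 and 374 in I0-E0, 370.2, 374 and 362 in I0-E2, 346, 353 and 352 in I0-E4 and 371, 339 and 383 in I2-E2, and in batch 2 373 and 369.6 in NC and 369.7, 378 and 370.1 in I3-E3-SRS. The 3 libraries of I0-E4 lay below NC for Pfkp, at a log2 fold change of -0.09 (95% interval -0.19 to 0.02). Pfkfb3 held 106, 98.5 and 107 CPM in NC of batch 1, 97.7, 109 and 106 in I0-E0, 106, 108 and 95.02 in I0-E2, 89.9, 99.3 and 109 in I0-E4 and 104, 75.4 and 97.8 in I2-E2, and in batch 2 93.6 and 104 in NC and 87.8, 94.8 and 90.5 in I3-E3-SRS. Pfkfb3, which makes the activator of phosphofructokinase, had its lowest value in I2-E2 replicate 2 and overlapped NC in every exposure, with I2-E2 at -0.16 (95% interval -0.36 to 0.05). Aldoa held 1086, 1064 and 1024 CPM in NC of batch 1, 1121, 1031 and 1045 in I0-E0, 1065, 1149 and 1135 in I0-E2, 1165, 1124 and 1101 in I0-E4 and 1106, 1154 and 1059 in I2-E2, and in batch 2 1358 and 1294 in NC and 1317, 1233 and 1377 in I3-E3-SRS. I0-E4 lay above NC for Aldoa, which splits fructose bisphosphate, at 0.09 (95% interval -0.01 to 0.20). Tpi1 held 332, 323 and 365 CPM in NC of batch 1, 365, 328 and 331 in I0-E0, 343, 373 and 364 in I0-E2, 383, 376 and 331 in I0-E4 and 368, 415 and 329 in I2-E2, and in batch 2 421 and 425 in NC and 427, 394 and 453 in I3-E3-SRS. Tpi1, which interconverts the triose phosphates, overlapped NC in each exposure, and its values ran from 0.004 to 0.12. Of Hk1, Hk2, Gpi1, Pfkm, Pfkp, Pfkfb3, Aldoa, Aldoc and Tpi1, 0 came under an unadjusted p of 0.05 in any of the 7 tests.

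Pfkl had the second smallest member p in I0-E4. Pfkl held 171, 154 and 166 CPM in NC of batch 1, 191, 163 and 164 in I0-E0, 164, 178 and 176 in I0-E2, 212, 198 and 169 in I0-E4 and 179, 188 and 178 in I2-E2, and in batch 2 216 and 198 in NC and 217, 197 and 217 in I3-E3-SRS. In I0-E4 2 of the 3 libraries were above NC and replicate 3 lay within its range. The log2 fold change there was 0.24 (95% interval 0.07 to 0.41), with an edgeR adjusted p of 0.61, and 0.16 with its highest library, I0-E4 replicate 1, left out. In I2-E2 the 3 libraries lay above NC, at 0.15 (95% interval -0.02 to 0.32).

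**Figure D3:**
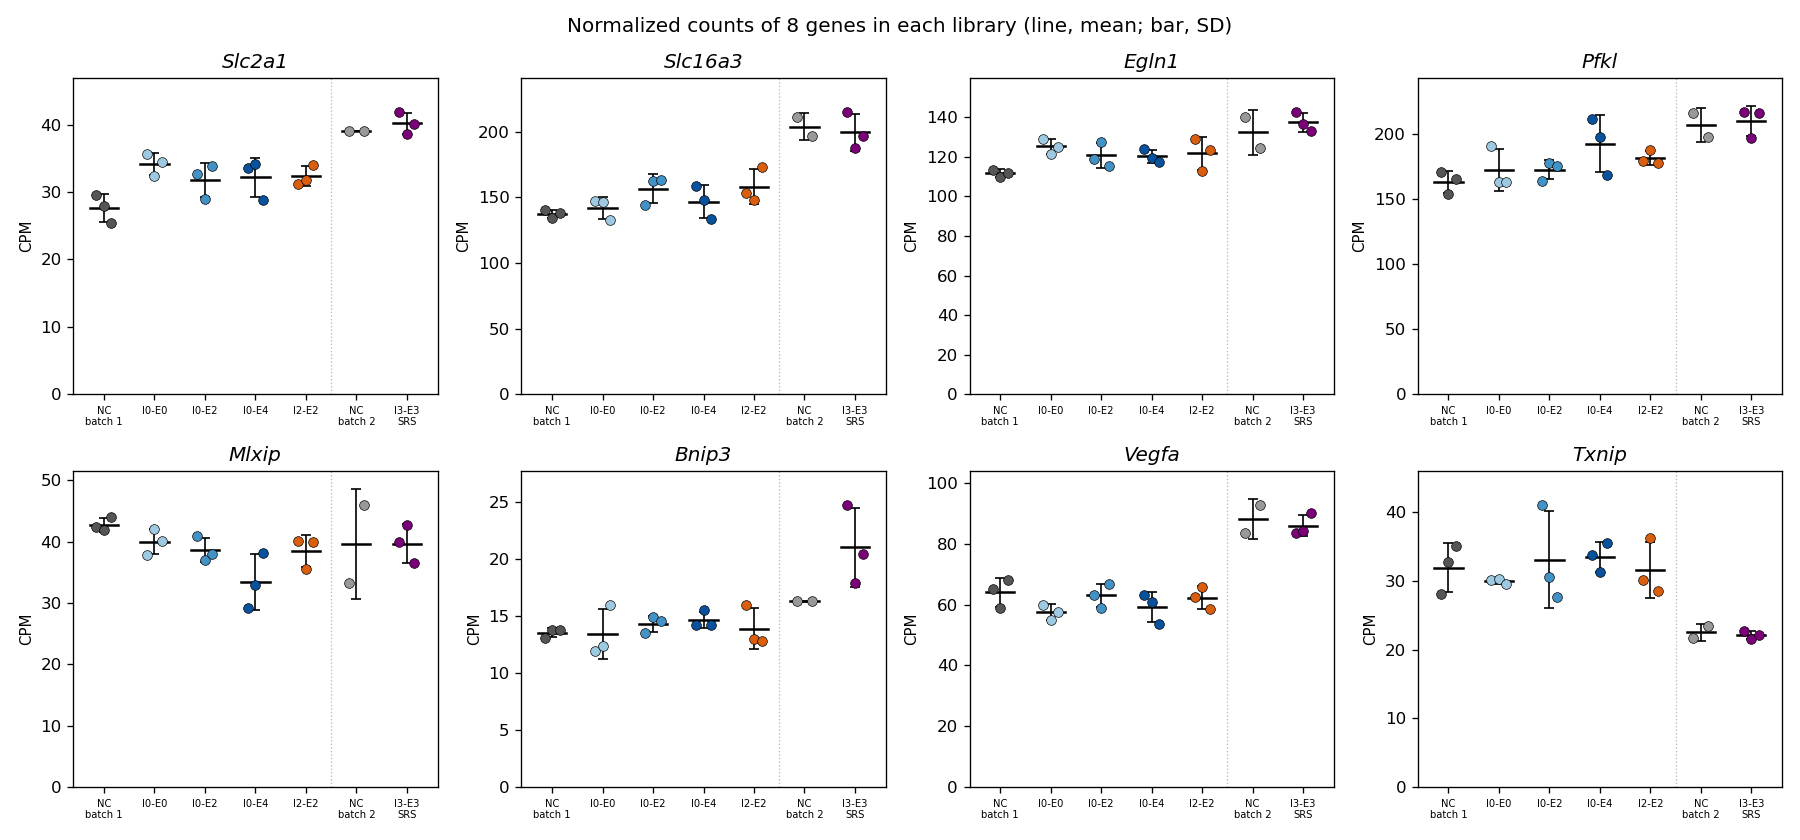
CPM of 8 members in each library (points), with the group mean (line) and SD (bar); the dotted line separates the batches, and each axis starts at 0. No difference passed the test; the means of the exposed groups of batch 1 lie above NC for Slc2a1, I0-E4 lies below NC for Mlxip, and I3-E3-SRS lies above both NC libraries of batch 2 for Bnip3.

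Gapdh, which oxidises glyceraldehyde phosphate and is widely used as a reference gene, came under an unadjusted p of 0.05 in 3 of the 5 exposures, on the low side. Its reads, however, were divided among near-identical copies, 42 of which share at least 50% of their 31-base words with it. Gm13394, a processed pseudogene at chr2:28933610-28934609, matches 998 of the 999 coding bases of Gapdh, and Gm7336, a processed pseudogene at chr7:51746647-51747878, matches all 999. The stretch below covers coding bases 286 to 405 of Gapdh (chr6:125161715-125166467, minus strand) and shows the single base that sets Gm13394 apart, in capitals in both lines; sequences are from GENCODE vM21 transcripts, build GRCm38.
Gapdh: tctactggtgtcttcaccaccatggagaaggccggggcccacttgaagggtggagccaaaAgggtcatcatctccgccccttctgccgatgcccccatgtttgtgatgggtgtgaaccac
Gm13394: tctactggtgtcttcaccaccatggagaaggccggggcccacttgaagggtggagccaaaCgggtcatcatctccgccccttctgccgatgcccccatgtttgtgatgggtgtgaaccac

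In NC of batch 1 Gapdh itself held 431, 372 and 394 CPM, while its copies together held 1159, 1186 and 1106 CPM, of which Gm13394 took 868, 912 and 854 CPM. Gapdh thus received 25.7% ± 1.67 of the reads of the family (n = 3). Even within the gene, 34.2% to 52.9% of its reads in batch 1 went to its coding transcripts and 38.0% to 54.2% to Gapdh-206, a transcript with a retained intron. In NC-batch2 replicate 1 its coding transcripts held 0.621% of its reads, in contrast to 73.5% in NC-batch2 replicate 2.

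I0-E0 held 364, 366 and 354 CPM of Gapdh, below all 3 NC libraries, for a log2 fold change of -0.14 (95% interval -0.29 to -0.002). I2-E2 held 339.7, 375 and 363 CPM and overlapped NC, at -0.15 (95% interval -0.30 to -0.01). I3-E3-SRS held 497, 478 and 549 CPM, below 568 and 577 CPM in NC of batch 2, at -0.17 (95% interval -0.34 to -0.005). Gapdh did not pass in these exposures, with edgeR adjusted p from 0.68 to 1.00. I0-E2 held 373, 383 and 436 CPM and I0-E4 393, 428 and 399 CPM, and both overlapped NC. In I2-E2 against I0-E2 the value was -0.15 (95% interval -0.29 to -0.004).

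With the reads of the copies added, these log2 fold changes were -0.05 in I0-E0, -0.07 in I2-E2, -0.08 in I3-E3-SRS and -0.12 in I2-E2 against I0-E2. With the trend on transcript length removed, the value in I2-E2 was -0.24. Without NC-batch1 replicate 1, the highest NC library, it was -0.09 for I0-E0 and -0.10 for I2-E2. Without I0-E2 replicate 3 the comparison of I2-E2 with I0-E2 gave -0.08.

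**Figure D4:**
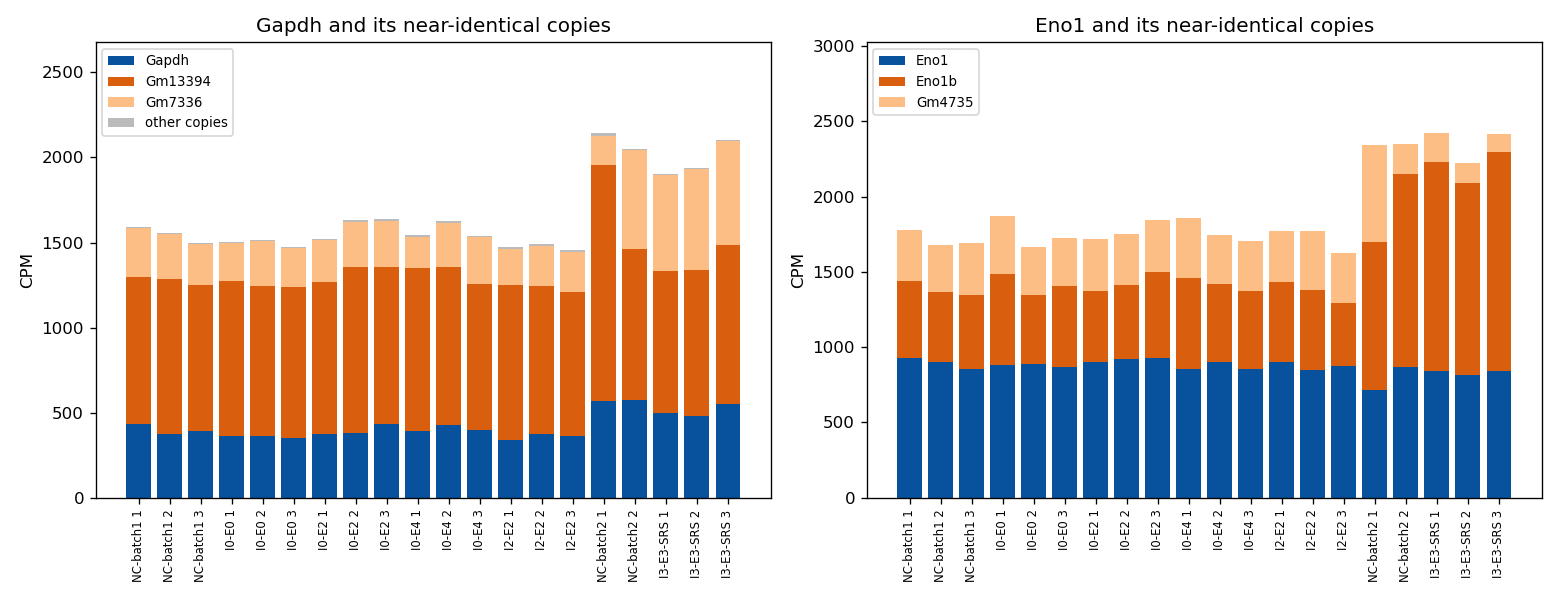
CPM of Gapdh (left) and Eno1 (right) with their near-identical copies, stacked for each of the 20 libraries. Most reads of the Gapdh family lie in Gm13394 and Gm7336, the Eno1 family holds more Eno1b and less Gm4735 in I3-E3-SRS and NC-batch2 replicate 2 than in batch 1, and NC-batch2 replicate 1 divides both families differently from the rest of its batch.

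Eno1 held 926, 902 and 857 CPM in NC of batch 1, 879, 890.5 and 870.5 in I0-E0, 903, 920.4 and 929 in I0-E2, 852, 904 and 856 in I0-E4 and 903, 848 and 874 in I2-E2, and in batch 2 717 and 869.7 in NC and 838, 816 and 843 in I3-E3-SRS. Eno1, the enolase of most cells, shares its reads with Eno1b and the pseudogene Gm4735. In batch 1 Eno1 held 45.8% to 53.7% of the reads of the 3 genes, and in batch 2 30.7% to 37.1%. Eno1b was at 420 to 607 CPM in batch 1 and at 979 to 1451 CPM in batch 2, so the batches cannot be compared for Eno1 alone. In NC-batch2 replicate 1 Gm4735 reached 642 CPM, against 199 CPM in NC-batch2 replicate 2 and 124 to 188 CPM in I3-E3-SRS. The summed family was at 2339 and 2346 CPM in NC and 2226 to 2419 CPM in I3-E3-SRS. The log2 fold changes of Eno1 against NC ran from -0.04 to 0.07. The highest, in I3-E3-SRS, turned to -0.06 without NC-batch2 replicate 1, since the 3 exposed libraries lay between the 2 NC libraries.

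Pgk1 and Pgam1, the enzymes between Gapdh and the enolases, held their lowest values in batch 2 in a single library. Pgk1 held 387, 417 and 415 CPM in NC of batch 1, 439.9, 398 and 427 in I0-E0, 421, 429 and 436 in I0-E2, 456, 442 and 410.2 in I0-E4 and 428, 469 and 386 in I2-E2, and in batch 2 341 and 415 in NC and 453, 406 and 458 in I3-E3-SRS. In I3-E3-SRS the log2 fold change of Pgk1 was 0.21 (95% interval -0.01 to 0.44), and 1 of its 3 libraries lay within the NC range. The low value belonged to NC-batch2 replicate 1, in which 98.3 CPM had been assigned to 2 processed pseudogenes of Pgk1, Gm5537 and Pgk1-rs7. In every batch 1 library these copies held 0 CPM, and in the other libraries of batch 2 at most 5.72 CPM. Without that library the log2 fold change was 0.08, without NC-batch2 replicate 2 it was 0.37 (edgeR adjusted p = 0.059), and with the copies added it was 0.05.

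Pgam1 held 621, 610.0 and 582 CPM in NC of batch 1, 594, 628 and 598 in I0-E0, 603, 639 and 632 in I0-E2, 596, 647 and 589 in I0-E4 and 599, 561 and 608 in I2-E2, and in batch 2 525 and 597 in NC and 582, 584 and 623 in I3-E3-SRS. The libraries of each exposure overlapped NC. In NC-batch2 replicate 1, 127 CPM had been assigned to its copy Pgam1-ps2, and 33.96 to 54.5 CPM in the other 4 libraries of the batch. The log2 fold change in I3-E3-SRS was 0.09 (95% interval -0.08 to 0.26), and -0.002 without that library. In I2-E2 against I0-E2 Pgam1 had the second smallest member p, at -0.08 (95% interval -0.19 to 0.03), and -0.05 without I2-E2 replicate 2.

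Pkm, pyruvate kinase, makes 2 proteins by choosing 1 of 2 exons. PKM2, the form of embryonic and tumour cells, has low basal activity and is allosterically regulated, and PKM1, the form of muscle and brain, is constitutively active. Both exons are 167 bases long and lie on the plus strand, the PKM1 exon at chr9:59675029-59675195 and the PKM2 exon at chr9:59675568-59675734. They differ at 64 positions, in capitals here, and are 61.7% identical, so reads over this exon tell the forms apart.
PKM1: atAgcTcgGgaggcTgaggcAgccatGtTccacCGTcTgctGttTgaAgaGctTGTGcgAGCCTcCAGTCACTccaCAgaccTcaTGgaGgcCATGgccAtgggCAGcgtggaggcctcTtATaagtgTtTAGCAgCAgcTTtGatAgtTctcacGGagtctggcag
PKM2: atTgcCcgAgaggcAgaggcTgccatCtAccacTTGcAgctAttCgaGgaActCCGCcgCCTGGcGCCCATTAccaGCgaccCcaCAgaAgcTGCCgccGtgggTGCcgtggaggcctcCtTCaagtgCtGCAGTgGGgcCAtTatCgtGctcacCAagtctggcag

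Both forms were abundant in N2A cells. In NC of batch 1 the PKM1 transcript held 502, 441 and 475 TPM and the PKM2 transcript 644, 599 and 590 TPM, so that PKM1 made up 43.8%, 42.4% and 44.6% of their sum. The remaining Pkm transcripts, which carry neither exon, held 56.1 to 67.4 TPM. The transcripts of the 2 forms also differ in their first and last exons, so the split estimated from the reads does not rest on the alternative exon alone.

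The PKM1 share did not separate exposed from unexposed libraries. It was 43.6% ± 1.10 in NC, 43.0% ± 1.65 in I0-E0, 43.6% ± 2.15 in I0-E2, 42.3% ± 3.41 in I0-E4 and 41.8% ± 3.09 in I2-E2 (SD, n = 3 each). The differences from NC were -0.646, -0.00716, -1.26 and -1.76 percentage points, with exact two-sided permutation p of 0.60, 1.00, 0.60 and 0.50 (adjusted over the 6 comparisons, 0.84 to 1.00). With 3 libraries against 3, p cannot fall below 0.10. I2-E2 and I0-E2 differed by -1.75 points (exact permutation p = 0.70). Within I0-E4 replicate 3 stood at 46.3% and the other libraries at 40.1% and 40.7%, and within I2-E2 replicate 3 stood at 45.1% beside 41.3% and 39.0%. Those replicates also had the longest fragment subtracted in their groups, 216 and 219 bases beside 196 to 203 bases, and its part in the share was not tested.

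In batch 2 the NC libraries stood at 51.8% and 40.0%, and I3-E3-SRS at 39.8%, 42.4% and 40.5%. The difference of -5.02 points (exact permutation p = 0.30, smallest possible 0.10) turned to 0.870 points without NC-batch2 replicate 1, which gave the 51.8%.

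**Figure D5:**
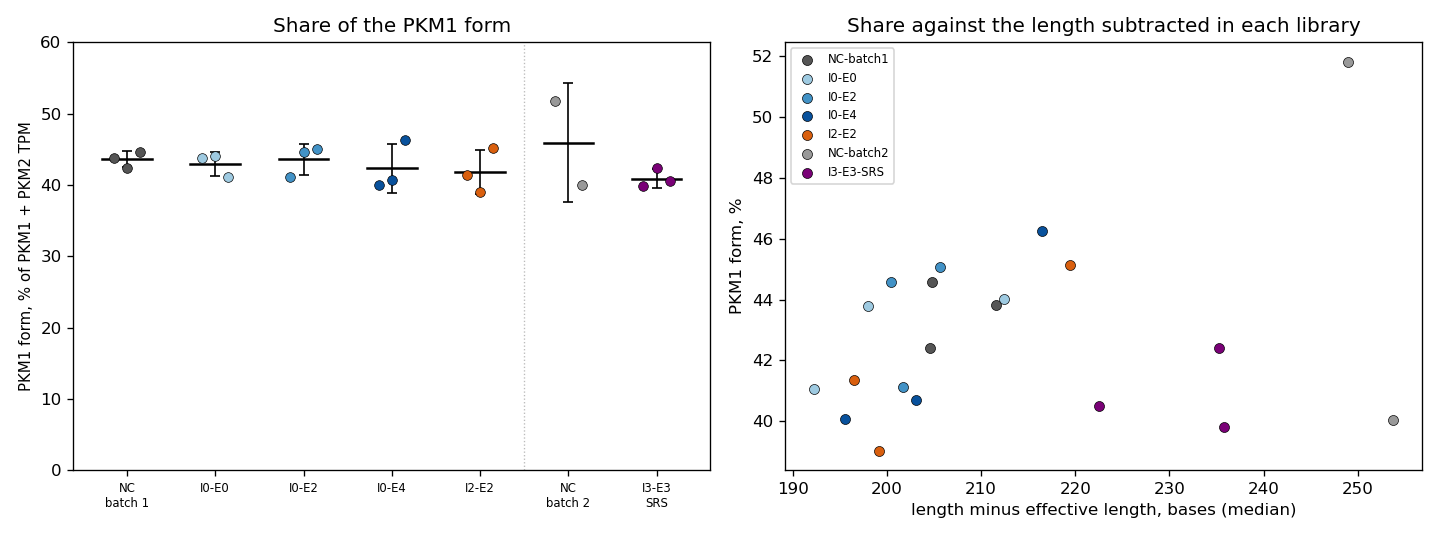
Left, the PKM1 share (% of the TPM of both forms) in each library with the group mean and SD; right, the same share against the median number of bases subtracted from a transcript to give its effective length. Groups of batch 1 overlap between 39.0% and 46.3%, and the grey point at 51.8% is NC-batch2 replicate 1.

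As a whole gene, Pkm had the third smallest member p in I0-E4 and in I2-E2. Pkm held 1561, 1452 and 1493 CPM in NC of batch 1, 1697, 1514 and 1506 in I0-E0, 1523, 1647 and 1661 in I0-E2, 1735, 1655 and 1571 in I0-E4 and 1651, 1685 and 1586 in I2-E2, and in batch 2 1959.5 and 1946 in NC and 1895, 1850.5 and 2005 in I3-E3-SRS. I0-E4 and I2-E2 lay above NC, at log2 fold changes of 0.14 (95% interval 0.02 to 0.26) and 0.13 (95% interval 0.01 to 0.25), and neither passed (edgeR adjusted p = 0.61 and 0.68). In I3-E3-SRS the value was -0.03 (95% interval -0.15 to 0.10).

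At the lactate end, Slc16a3 had the smallest member p in I0-E2 and I2-E2. Slc16a3 held 140.3, 134 and 138 CPM in NC of batch 1, 148, 146 and 133 in I0-E0, 144, 163 and 163 in I0-E2, 159, 148 and 134 in I0-E4 and 153, 148 and 173 in I2-E2, and in batch 2 211 and 197 in NC and 215, 187 and 197 in I3-E3-SRS. Every library of I0-E2 and I2-E2 lay above NC, and the other exposures overlapped it. The log2 fold change was 0.19 (95% interval 0.03 to 0.35) in I0-E2 and 0.21 (95% interval 0.04 to 0.37) in I2-E2, with edgeR adjusted p of 0.99 and 0.63. Without I2-E2 replicate 3 the second value was 0.13.

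Ldha held 1463, 1474 and 1432 CPM in NC of batch 1, 1593, 1473 and 1479.6 in I0-E0, 1481, 1548 and 1659 in I0-E2, 1586, 1632 and 1448 in I0-E4 and 1516, 1516 and 1479.5 in I2-E2, and in batch 2 1568 and 1622 in NC and 1561, 1496 and 1656 in I3-E3-SRS. Ldha had the third smallest member p in I0-E2, where its libraries lay above NC, at 0.10 (95% interval -0.01 to 0.21), and 0.06 without I0-E2 replicate 3. Slc16a1 ranged from 157 to 209 CPM and came under an unadjusted p of 0.05 in 0 of the 7 tests.

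Among the HIF targets, Egln1 had the second smallest member p in I0-E0. Egln1 held 114, 109.6 and 112 CPM in NC of batch 1, 129, 122 and 125 in I0-E0, 119, 128 and 116 in I0-E2, 124, 119 and 118 in I0-E4 and 129, 113 and 124 in I2-E2, and in batch 2 140.4 and 124 in NC and 143, 137 and 133 in I3-E3-SRS. The libraries of I0-E0, I0-E2 and I0-E4 lay above NC, while I2-E2 replicate 2 fell inside the NC range. The log2 fold change was 0.17 (95% interval 0.04 to 0.29) in I0-E0, with an edgeR adjusted p of 1.00, and 0.11 and 0.11 in I0-E2 and I0-E4. In I2-E2 it was 0.13, and 0.08 without I2-E2 replicate 1.

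Bnip3, which encodes a mitophagy receptor, had the second smallest member p in I3-E3-SRS. Bnip3 held 13.1, 13.8 and 13.8 CPM in NC of batch 1, 11.95, 12.4 and 15.9 in I0-E0, 13.5, 14.9 and 14.6 in I0-E2, 14.3, 15.5 and 14.2 in I0-E4 and 15.97, 12.97 and 12.8 in I2-E2, and in batch 2 16.4 and 16.3 in NC and 24.7, 17.9 and 20.5 in I3-E3-SRS. The 3 libraries of I3-E3-SRS lay above both NC libraries, at a log2 fold change of 0.36 (95% interval -0.01 to 0.73). Without the highest library, I3-E3-SRS replicate 1, it was 0.24.

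Vegfa held 65.2, 58.8 and 68.2 CPM in NC of batch 1, 60.01, 54.8 and 57.5 in I0-E0, 63.3, 59.01 and 66.7 in I0-E2, 63.1, 60.99 and 53.7 in I0-E4 and 62.5, 65.9 and 58.5 in I2-E2, and in batch 2 83.5 and 92.7 in NC and 83.5, 84.3 and 89.99 in I3-E3-SRS. Vegfa overlapped NC in each exposure. Its lowest log2 fold change was -0.15 (95% interval -0.32 to 0.01), in I0-E0, and in I3-E3-SRS it was -0.04 (95% interval -0.20 to 0.13), or -0.11 without NC-batch2 replicate 1.

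The 3 remaining HIF targets that could be tested rested on few reads. Ndrg1, a stress and differentiation gene, had 168 reads in all 20 libraries together. Ndrg1 held 0.602, 0.727 and 0.464 CPM in NC of batch 1, 0.881, 1.32 and 1.62 in I0-E0, 0.746, 1.504 and 1.17 in I0-E2, 1.84, 1.096 and 0.482 in I0-E4 and 1.67, 0.889 and 0.947 in I2-E2, and in batch 2 1.32 and 0.912 in NC and 1.14, 0.751 and 1.200 in I3-E3-SRS. Its log2 fold change in I0-E0 was 1.05 (95% interval -0.06 to 2.16), and in the other 3 exposures of batch 1 it was 0.85 to 0.94 with intervals that also held 0. Adm, a vasodilator peptide gene, ranged from 0.684 to 3.91 CPM. Ankrd37 held 3.01, 4.85 and 4.64 CPM in NC of batch 1, 3.02, 2.37 and 3.61 in I0-E0, 3.605, 2.005 and 2.94 in I0-E2, 5.83, 3.29 and 3.13 in I0-E4 and 3.19, 5.33 and 3.79 in I2-E2, and in batch 2 3.95 and 3.08 in NC and 4.45, 3.19 and 3.200 in I3-E3-SRS. In I2-E2 against I0-E2 Ankrd37 had the third smallest member p, at 0.51 (95% interval -0.17 to 1.19), with the 2 groups overlapping, and it was 0.29 without I2-E2 replicate 2. Pdk1, also a HIF target, was at 0 to 1.89 CPM and was not tested.

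Of the Mondo genes, Mlxip (chr5:123394798-123457932) had the smallest member p in I0-E4. Mlxip held 42.3, 41.9 and 44.1 CPM in NC of batch 1, 37.9, 42.03 and 40.1 in I0-E0, 40.9, 36.96 and 38.1 in I0-E2, 29.2, 32.9 and 38.2 in I0-E4 and 40.1, 35.5 and 39.9 in I2-E2, and in batch 2 33.3 and 45.9 in NC and 39.9, 42.7 and 36.5 in I3-E3-SRS. The libraries of I0-E4, I0-E2 and I2-E2 all lay below NC in batch 1, while I0-E0 overlapped it. The log2 fold change was -0.35 (95% interval -0.54 to -0.15) in I0-E4, with an edgeR adjusted p of 0.61, and -0.15 and -0.15 in I0-E2 and I2-E2. Over the 5 groups of batch 1 Mlxip had the smallest member p as well (edgeR adjusted p = 0.98), followed by Gapdh and Slc2a1. In batch 2 the 2 NC libraries lay on both sides of the 3 I3-E3-SRS libraries, and the log2 fold change of -0.01 became -0.21 without NC-batch2 replicate 1 and 0.25 without NC-batch2 replicate 2.

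The length of a transcript moved with some of these libraries. The log2 difference from the NC mean changed by -0.31, -0.34 and 0.04 per 10-fold transcript length in the 3 libraries of I0-E4 and by -0.16, -0.35 and 0.10 in I2-E2, where a negative value means that long transcripts were lower. It ran from -0.21 to 0.07 in I0-E0 and I0-E2 and from -0.05 to 0.06 in NC of batch 1. The Mlxip values of I0-E4 were lowest in replicates 1 and 2, the libraries with the negative values. With the trend removed from each library, the log2 fold change of Mlxip in I0-E4 was -0.27. The part of transcript length in the Mlxip values was not tested.

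Txnip held 28.03, 32.7 and 35.1 CPM in NC of batch 1, 30.1, 30.3 and 29.5 in I0-E0, 41.02, 30.6 and 27.6 in I0-E2, 33.8, 31.2 and 35.5 in I0-E4 and 30.1, 36.3 and 28.5 in I2-E2, and in batch 2 21.6 and 23.4 in NC and 22.7, 21.5 and 22.2 in I3-E3-SRS. Txnip, the target of MondoA that responds most directly to glucose, overlapped NC in each exposure. Its log2 fold changes against NC ran from -0.09 to 0.08, and in I0-E4, where Mlxip was lowest, it was 0.08 (95% interval -0.20 to 0.35).

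CPM also differed between the batches, which were scaled and fitted apart and so share no common scale. Batch cannot be told apart from any other difference between the 2 sets of wells, and the difference was not tested. The NC means were 64.1 and 88.1 CPM for Vegfa, 137 and 204 CPM for Slc16a3, 27.6 and 39.1 CPM for Slc2a1, and 31.9 and 22.5 CPM for Txnip, in batch 1 and batch 2.

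The wider pathway was read from 94 further genes in 7 lists, of which 69 could be tested in batch 1 and 70 in batch 2. None passed an adjusted p of 0.05 in a test. At an unadjusted p under 0.05, 1 passed in I0-E0, 2 in I0-E2, 7 in I0-E4, 5 in I2-E2, 2 in I2-E2 against I0-E2, 3 in I3-E3-SRS and 0 for any difference among the 5 groups, which is 1.45%, 2.90%, 10.1%, 7.25%, 2.90%, 4.29% and 0% of those tested. Their median log2 fold change lay between -0.02 and 0.03 in each comparison.

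In the HIF machinery, Hif1a, the oxygen-labile subunit, was at 243 ± 5.07 CPM in NC of batch 1 and 228 ± 5.34 CPM in I0-E2 (SD, n = 3 each), the lowest of its list there at a log2 fold change of -0.09. Egln2, another prolyl hydroxylase, was the highest of the list in I0-E4 and I2-E2, at 0.32 and 0.30, from 59.6 ± 3.67 CPM in NC to 74.7 ± 14.4 and 73.9 ± 10.04 CPM. Arnt, the partner subunit of Hif1a, was the lowest in I0-E4, at -0.19, from 29.7 ± 1.21 CPM in NC to 25.8 ± 2.18 CPM. Among other HIF targets, Ddit4, an inhibitor of mTOR signalling, was the highest in I2-E2 at a log2 fold change of 0.24, and Mxi1, a MAX-binding antagonist of Myc, was the lowest in I0-E4 at -0.17.

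Of the genes of pyruvate entry, Pdp1, which activates pyruvate dehydrogenase, was the lowest in I0-E4 and I2-E2, at -0.27 and -0.31. Mpc1, a subunit of the mitochondrial pyruvate carrier, was the highest in I3-E3-SRS, at 0.30, from 59.2 ± 10.3 CPM in NC (n = 2) to 73.5 ± 0.622 CPM (n = 3), and at 0.15 without NC-batch2 replicate 1. Among other glycolysis genes, Pfkfb2 was the lowest in I0-E4, at -0.46, Pfkfb1 the highest in I2-E2, at 0.41, and Pgm2 and Adpgk the lowest and highest in I3-E3-SRS, at -0.26 and 0.23, or -0.16 and 0.24 without that library. Each gene of these lists named here came under an unadjusted p of 0.05 except Hif1a, and none passed the edgeR adjustment. Without NC-batch2 replicate 1, Mpc1 and Pgm2 no longer came under it. In the pentose phosphate list 0 of 7 genes tested came under an unadjusted p of 0.05 in a test, and likewise 0 of 8 other Mondo network genes. In the list of other sugar and lactate transport genes it was 0 of 4 in batch 1 and 0 of 5 in batch 2.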

How the data were processed

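Bulk RNA-seq of 20 N2A libraries was quantified by the authors with Salmon (version, options and read layout: not given in the sources used here). The authors deposited for each transcript an estimated count and a TPM, which is the count divided by effective length and scaled per library. Transcripts were matched to GENCODE vM21 (98.6%), the rest holding 0.664% to 0.748% of counts. Estimated counts were summed per gene, rounded, filtered with filterByExpr (minimum count 10) and scaled by TMM. Batches were fitted apart in edgeR 4.0.16 (R 4.3.3) with group as the factor, on 12296 and 12031 genes with 10 and 3 residual degrees of freedom, in place of the limma test of the study, since counts were deposited. Adjusted p-values are by Benjamini-Hochberg over all genes tested. The standard error behind each interval was the size of the log2 fold change divided by the square root of the test's F value. Intervals therefore restate the quasi-likelihood test and are no separate check. PKM1 shares were compared by exact permutation tests. Copies share at least 50% of their 31-base words with a member. Scripts were tested on simulated data. Alternatives were DESeq2 1.42.0, limma-voom 3.58.1, other scalings, no filter, length-scaled counts, length trend removal, copies added, a replicate block, pairwise fits and leaving out each library. The members and lists were chosen with earlier results of these data known. Where a name belonged to more than 1 annotated gene, the gene with the highest mean TPM was used. A further gene named Aldoa was left out in this way, and its log2 fold change in I3-E3-SRS was -0.08. Values per library were given for the 3 members with the smallest p in each comparison, the member with the highest TPM in each role (Pdk1, alone in its role, by its range), and Pkm, Txnip and Vegfa, and other listed genes by name only where lowest or highest of their list in a comparison; 1 such gene is not reported here. Ndrg1 was detailed after its values were seen. Laser settings are described in words, since the labels give condition names only.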

Additional observations from a re-analysis of the deposited data

How the results depend on the processing

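The number of the 33 genes past an adjusted p of 0.05 stayed at 0 in all 7 tests under each alternative and each library left out. Counts over all genes were 46 to 353 with no filter on low counts, 0 to 15 by DESeq2, 0 by limma-voom, 2 in I2-E2 against I0-E2 with only those groups fitted, and 671 in I3-E3-SRS without NC-batch2 replicate 2, which leaves as control the library with whole-number effective lengths. With no filter, 25283 genes were tested in batch 1 and 20212 in batch 2. Correlations of same-numbered deviations from group means ran from -0.39 to 0.50 in batch 1, and those of differently numbered ones from -0.40 to 0.40. The highest same-numbered value came from I0-E4 with I2-E2, where these values were 0.13, 0.18 and 0.50 and the others -0.40 to 0.25. For I0-E0 with I2-E2 the same-numbered values were 0.03, -0.39 and -0.23. Pairing was not excluded. In batch 2 the deviations of the 2 NC libraries mirror each other, so the correlations there cannot show pairing. The replicate block called 0 members in each test and 6 genes of all in I3-E3-SRS. The log2 fold changes of the 3 members with the smallest p in each comparison kept their sign under every alternative run. With counts rebuilt from TPM the member median in I3-E3-SRS was -0.15, Gapdh there was at -0.53 and Slc2a1 in I0-E2 at 0.41.

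The PKM1 share difference changed sign in I0-E2 by estimated counts (0.00720 points), and its range over the libraries left out was -0.746 to 1.23 points. For I0-E0 that range was -1.24 to 0.306 points and for I3-E3-SRS -10.9 to 0.870 points. In I0-E2 the sign changed without I0-E2 replicate 1 (1.23), NC-batch1 replicate 1 (0.0987) or NC-batch1 replicate 3 (0.480), in I0-E0 without I0-E0 replicate 3 (0.306), and in I3-E3-SRS without NC-batch2 replicate 1 (0.870). The cause was not tested. Batch 2 has 2 controls and 3 residual degrees of freedom, and a member such as Ndrg1, with 3 to 15 reads per library, is limited by counting.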

Other observations

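I0-E0 replicate 3 had at least 1 read in 19940 genes, and the other libraries of batch 1 in 15979 to 17173 genes. Among the members it held the highest Bnip3 value of I0-E0 (15.9 CPM) and the lowest Slc16a3 value of batch 1 (133 CPM). It was also the lowest of the 20 libraries for Pfkm (54.1 CPM) and Aldoc (0.498 CPM). Some library is the extreme for each gene, so these values do not show that the members were unusual in it.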
